A study of Mus musculus with 3 samples.

Results

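The intervals described here are those of NBS1 and input peak lists that begin in the centromere-proximal 2 Mb of the mouse autosomes, that is on chromosomes 1 to 19 with a deposited start below 5 Mb of build mm9. The assembled sequence of these chromosomes begins near 3 Mb, so the window runs from 3 to 5 Mb and adds up to 38 Mb. It held 568 of the 21785 intervals in the 4 deposited lists: 128 of AH2 NBS1, 82 of R2K.Artm NBS1, 324 of AH2 input and 34 of AH2 NBS1 after subtraction. Members were chosen by position alone, so no score or overlap entered the choice. NBS1 chromatin immunoprecipitation sequencing was done with a monoclonal rabbit antibody in AH2 and R2K.Artm, pre-B cell lines of the mouse carrying the v-Abl oncogene, and unselected input DNA was sequenced from AH2. The labels leave genotype as not applicable for both lines and name no treatment, age or strain, so what separates AH2 from R2K.Artm cannot be read from them. The study's title places its question in DNA breaks made by the RAG recombinase outside immunoglobulin genes. Each group was 1 library of unknown depth, so there is no replicate error, no p-value is given, and the intervals printed cover counting error only.

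Mouse autosomes carry their centromere at one end. Next to it lie long arrays of major satellite, a tandem repeat packed into heterochromatin with repressive histone methylation, and the reference assembly leaves most of that DNA out. NBS1 is the subunit of the MRE11-RAD50-NBS1 complex that recruits the kinase ATM to double-strand breaks, and MRE11 is its nuclease. An input library shows where reads gather without an antibody, so the main NBS1 densities, widths and runs below are given with those of input. Peaks are named by position, since gene annotation and sequence of build mm9 were not used here.

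The proximal window was denser in peaks than the rest of the autosomes in all 4 lists, input included. AH2 NBS1 had 3.37 intervals per Mb in the window (exact Poisson interval 2.81 to 4.01) and 1.86 per Mb elsewhere, a ratio of 1.81 (exact 95% interval 1.51 to 2.16). R2K.Artm NBS1 had 2.16 per Mb (1.72 to 2.68) against 1.12, a ratio of 1.93 (1.53 to 2.40). AH2 input had 8.53 per Mb (7.62 to 9.51) against 4.47, a ratio of 1.91 (1.70 to 2.13). The window thus held 2.82% of autosomal AH2 NBS1 peaks, 2.99% of R2K.Artm NBS1 peaks and 2.96% of input peaks, on 1.57% of the length, and the Wilson intervals of these shares overlapped (2.38 to 3.34%, 2.42 to 3.70% and 2.66 to 3.29%). The ratio without the antibody lay between the ratios of the NBS1 lists. When intervals that overlapped an input peak were left out, the ratio was 1.23 (0.946 to 1.57) for AH2 NBS1 and 1.33 (0.931 to 1.84) for R2K.Artm NBS1, and both intervals included 1.

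Counts varied among the chromosomes, and which of them differ beyond counting error was not tested. For AH2 NBS1 the window was denser than the remainder of the same chromosome on 16 of 19 chromosomes, for R2K.Artm NBS1 on 13 and for input on 16. Chromosome 11 was the fullest for both NBS1 lists, with 14 AH2 NBS1 and 13 R2K.Artm NBS1 intervals, and chromosome 16 came next, with 13 and 12. Chromosome 17 followed for AH2 NBS1, with 10 intervals, and chromosome 6 for R2K.Artm NBS1, with 8. The density ratio on chromosome 11 was 3.86 for AH2 NBS1 and 5.89 for R2K.Artm NBS1. Input had its highest counts on chromosome 14, with 37 intervals, chromosome 16, with 31, and chromosome 7, with 25, and its lowest on chromosome 12, with 7. AH2 NBS1 was lowest on chromosomes 1 and 19, with 1 interval each. R2K.Artm NBS1 had 0 of its 82 window intervals on chromosomes 5, 14 and 19, which allows a share of up to 3.66% on each (3 counts of the total). For each of them the Poisson interval reached 1.84 per Mb. That is above the 1.17, 1.07 and 1.06 per Mb on the rest of these chromosomes, so the 0 counts show no depletion.

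**Figure D1:**
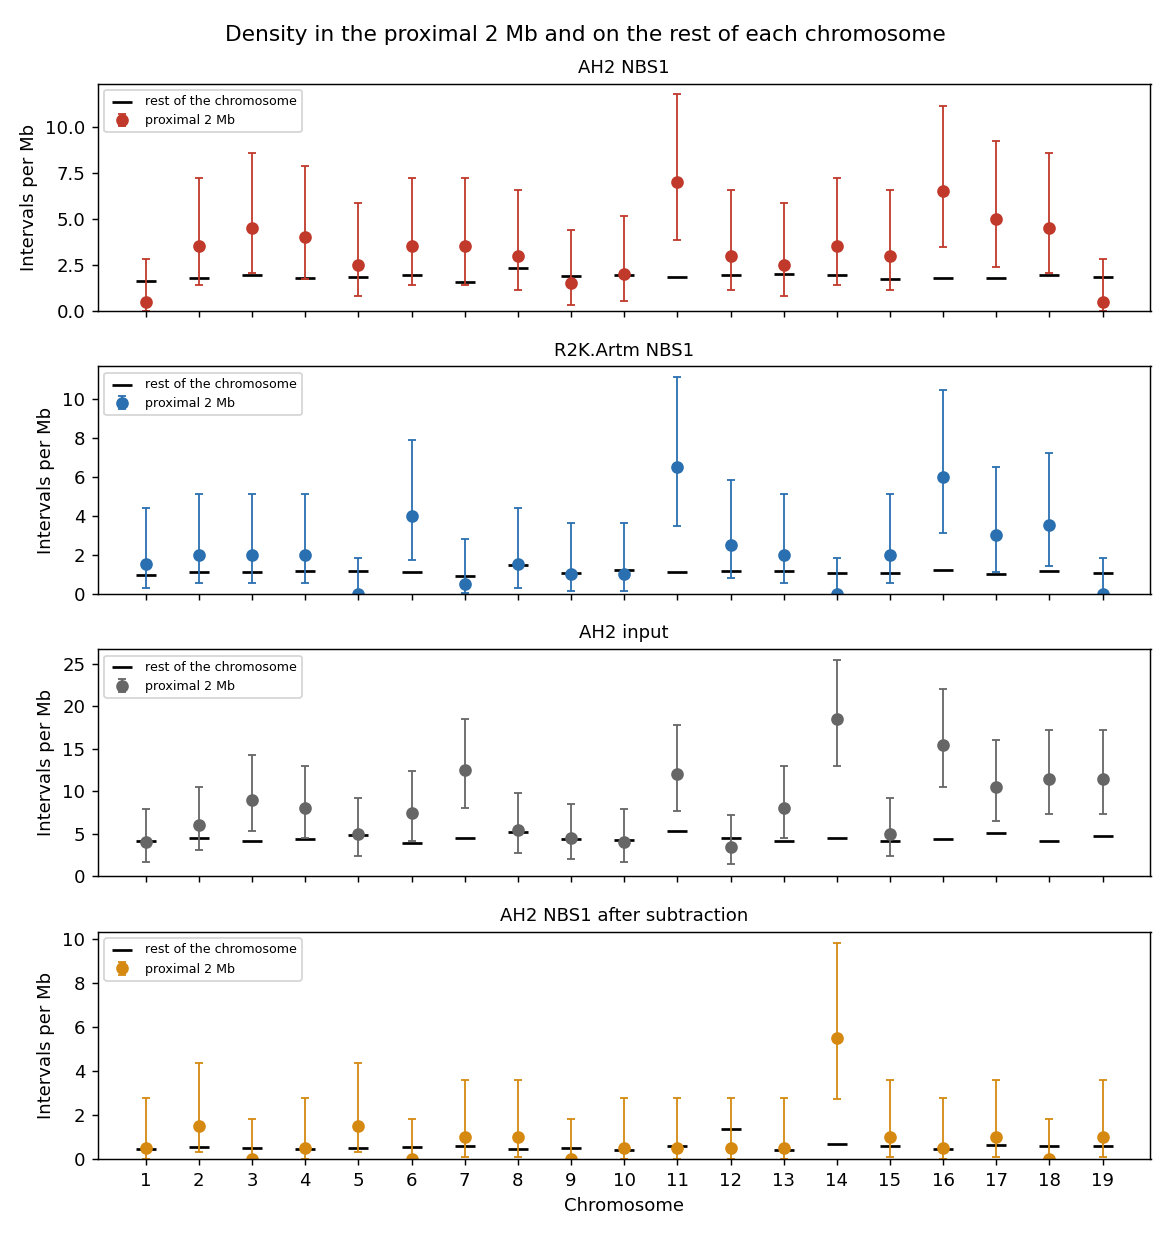
Intervals per Mb (vertical axis) on chromosomes 1 to 19, one panel per list; points are the proximal 2 Mb with exact Poisson intervals, black bars the rest of the same chromosome. Chromosomes 11 and 16 stand highest in both NBS1 panels, while chromosome 14 leads the input panel with 37 intervals and the panel after subtraction with 11.

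Input and NBS1 peaks had different fullest chromosomes, while chromosome 16 came next in all 3 lists, with 31 input, 13 AH2 NBS1 and 12 R2K.Artm NBS1 intervals. How far the rankings agree over all chromosomes was not tested, and the chromosomes below were picked for their counts. On chromosome 14 the 37 input intervals stood beside 7 AH2 NBS1 and 0 R2K.Artm NBS1 intervals. On chromosome 19 there were 23 input intervals, 1 AH2 NBS1 interval and none of R2K.Artm NBS1, and on chromosome 7 there were 25, 7 and 1. On chromosome 11, by contrast, 24 input intervals accompanied 14 and 13 NBS1 intervals. Each of these counts comes from 1 library.

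Within the window, the peaks of the 3 lists before subtraction crowded towards the start of the assembled sequence. In the first 100 kb from 3 Mb, AH2 NBS1 had 31 intervals, 16.3 per Mb, which was 8.79 times the density on the rest of the autosomes (Poisson interval 5.97 to 12.5). R2K.Artm NBS1 had 24 there, 11.3 times (7.24 to 16.8), and input 49, 5.77 times (4.27 to 7.62). From 100 to 500 kb the folds were 2.48, 3.06 and 2.24 in the same order. Beyond 500 kb the NBS1 lists no longer stood out: from 500 to 1000 kb AH2 NBS1 was at 1.02 times (0.605 to 1.61) and R2K.Artm NBS1 at 1.13 times (0.584 to 1.97), and from 1000 to 2000 kb they were at 1.25 times (0.906 to 1.67) and 0.942 times (0.575 to 1.45). Input stayed above its autosomal density over the whole window, at 1.46 times (1.12 to 1.87) from 500 to 1000 kb and 1.61 times (1.35 to 1.91) from 1000 to 2000 kb. The median start was 413 kb from 3 Mb for AH2 NBS1, 355 kb for R2K.Artm NBS1 and 813 kb for input. These peaks came in pieces, and with intervals under 10 kb apart joined the fold in the first 100 kb was 3.34 (1.66 to 5.97), 5.43 (2.71 to 9.72) and 2.93 (1.86 to 4.41).

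**Figure D2:**
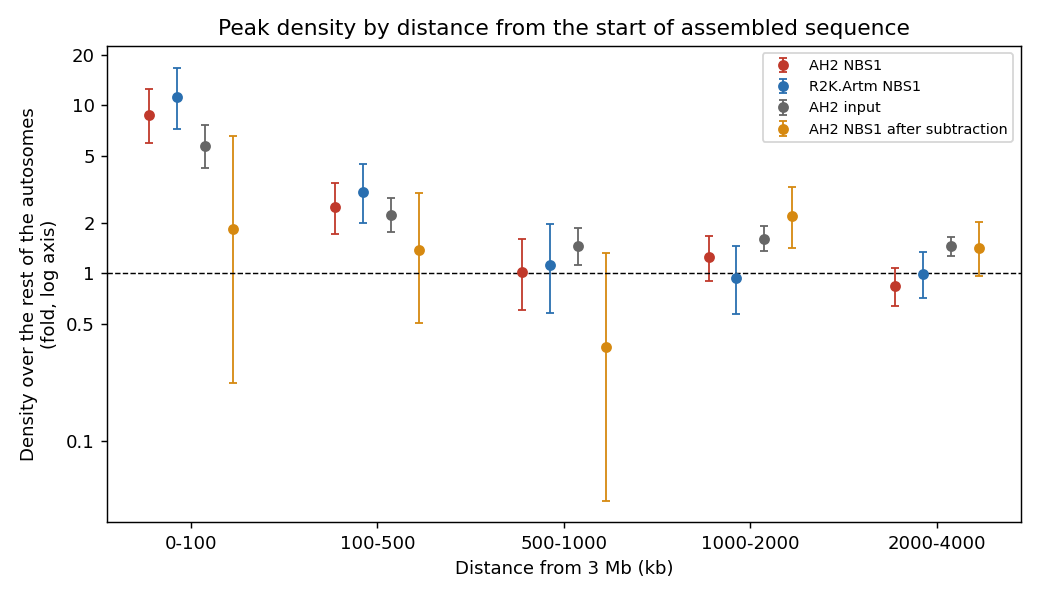
Peak density by distance from 3 Mb (horizontal axis, kb) as a fold over the rest of the autosomes (vertical log axis), with exact Poisson intervals; the dashed line marks equal density. The lists before subtraction fall from 8.79, 11.3 and 5.77 in the first 100 kb to values near 1 for both NBS1 lists beyond 500 kb.

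Few chromosomes made up the first 100 kb. The 31 AH2 NBS1 intervals lay on 6 chromosomes, with 11 on chromosome 11, 7 on chromosome 17, 5 on chromosome 18, 4 on chromosome 4, 3 on chromosome 6 and 1 on chromosome 3. R2K.Artm NBS1 had 9 on chromosome 11, 4 each on chromosomes 18 and 4, 3 each on chromosomes 17 and 6, and 1 on chromosome 16. Input reached 11 chromosomes, with 12 intervals on chromosome 17, 10 on chromosome 11 and 7 each on chromosomes 18 and 4. Without chromosome 11 the folds for AH2 NBS1 and R2K.Artm NBS1 were 5.98 (3.65 to 9.24) and 7.45 (4.16 to 12.3). For input, without its fullest chromosome 17, the fold was 4.62 (3.25 to 6.38).

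The interval nearest to 3 Mb was on chromosome 11 in each of these 3 lists. It began 0.371 kb from 3 Mb in AH2 NBS1 (3000371 to 3000634, score 235), 0.25 kb in R2K.Artm NBS1 (3000250 to 3000636, score 169) and 0.366 kb in input (3000366 to 3000604, score 298). The score is the peak caller's own value, used only to order peaks within a list. A run of 6 AH2 NBS1 intervals started there and ended at 3004750, and the same stretch held 4 R2K.Artm NBS1 and 4 input intervals. Near the start of its assembled sequence, chromosome 11 thus has 4.38 kb in which 2083 bp are covered by AH2 NBS1 peaks.

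**Figure D3:**
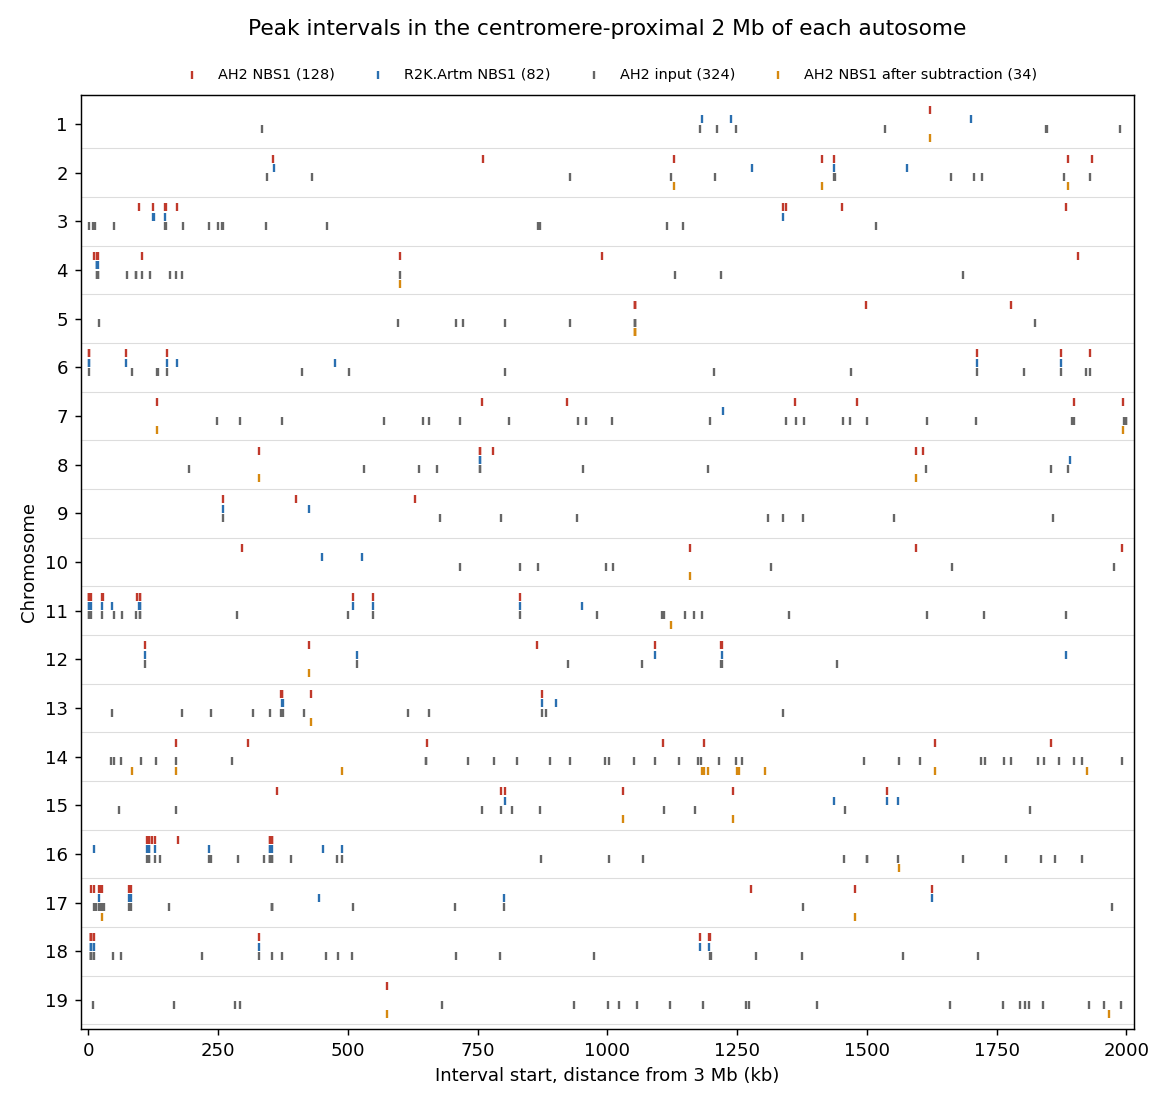
Start of every window interval as its distance from 3 Mb (horizontal axis, kb) on chromosomes 1 to 19 (vertical axis), with one row of ticks per list. Ticks of AH2 NBS1, R2K.Artm NBS1 and input stack at the left edge of chromosomes 4, 6, 11, 17 and 18 and near 113 and 350 kb on chromosome 16, whereas the 34 ticks after subtraction are nearly absent there.

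Runs of this kind, counted as 3 or more intervals each under 10 kb from the next, were more frequent per Mb in the window than elsewhere. AH2 NBS1 had 9 runs in 38 Mb and 33 on the rest of the autosomes, or 23.7 against 1.39 per 100 Mb, and the runs took in 39 of the 128 window intervals (30.5%) against 3.76% of the others. R2K.Artm NBS1 had 6 runs, 15.8 against 0.673 per 100 Mb, and input 15, 39.5 against 3.87 per 100 Mb. Another interval of the same list lay within 10 kb for 46.1% of AH2 NBS1 window intervals (Wilson 37.7 to 54.7%) and 10.7% of the others. For R2K.Artm NBS1 these shares were 39.0% (29.2 to 49.8%) and 7.83%, and for input 33.6% (28.7 to 39.0%) and 13.9%.

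All 6 R2K.Artm NBS1 runs coincided with an AH2 NBS1 run and an input run. For the 16 R2K.Artm NBS1 runs on the rest of the autosomes this was not computed, so it is not shown to be particular to the window. Chromosome 16 had an AH2 NBS1 run of 7 intervals from 3113384 to 3127543 and one of 5 from 3349895 to 3353152, matched by R2K.Artm NBS1 runs of 4 and 3 and input runs of 4 and 6. Chromosome 18 had 5 AH2 NBS1 intervals from 3004234 to 3011133, 4 of R2K.Artm NBS1 and 5 of input. Chromosome 4 had 4 AH2 NBS1 intervals from 3010089 to 3018386, 4 of R2K.Artm NBS1 from 3016604 and 4 of input from 3016605. A second run on chromosome 11, ending at 3100084 in AH2 NBS1, held 3 intervals in each list. Chromosome 17 was richest in input, with a run of 9 intervals from 3010211 to 3030040 beside an AH2 NBS1 run of 3 from 3020554 to 3027140, and no R2K.Artm NBS1 run. Of the 9 AH2 NBS1 runs, 1 lay more than 500 kb into the window, on chromosome 5 from 4052384 to 4054502. It had 3 intervals in input as well, and chromosome 5 had no R2K.Artm NBS1 interval in the window.

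Window peaks of the lists before subtraction were wider than other peaks, and ranked close to the middle of their list by score. The median width was 135.5 bp in AH2 NBS1 (117 bp elsewhere), 178.5 bp in R2K.Artm NBS1 (142 bp) and 153 bp in input (134 bp). The lower quartiles were higher as well, at 102.5, 141.25 and 119.75 bp against 90, 113 and 111 bp. Wide peaks were also more frequent. Intervals of at least 500 bp made up 12.5% of AH2 NBS1 window intervals (16 of 128, 7.84 to 19.3%) and 0.884% of the others, 17.1% of R2K.Artm NBS1 (10.5 to 26.6%) and 1.62%, and 6.79% of input (4.53 to 10.1%) and 1.34%. In the first 100 kb the median width was 264 bp for AH2 NBS1, 360.5 bp for R2K.Artm NBS1 and 209 bp for input. The excess was not even over the window. From 500 to 1000 kb the medians were 93.5, 122.5 and 138.5 bp, for both NBS1 lists below those elsewhere. From 1000 to 2000 kb they were 134, 158 and 155 bp. By covered bases the window therefore weighed more than by number, with 5.20%, 6.16% and 4.28% of all autosomal peak bases in the same order. The median score percentile of window intervals within the whole list was 49.5 for AH2 NBS1 (48.3 elsewhere on the autosomes), 53.5 for R2K.Artm NBS1 (48.1) and 51.2 for input (48.7). The top 10% of the AH2 NBS1 list took in 14.1% of its window intervals (9.08 to 21.1%) and 9.16% of the others, a difference within counting error.

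The few strongest window regions were high in the ranking of every library. The highest was on chromosome 12, where the joined region from 3109845 to 3110210 reached scores of 3221 in AH2 NBS1, 3100 in R2K.Artm NBS1 and 3100 in input. In the last 2 lists 3100 was also the highest score on the rest of the autosomes, so there the region was tied. Next came chromosome 6 at 3150711 to 3151735, with 1808, 1462 and 2129, and chromosome 6 again at 4873746 to 4874281, with 969, 945 and 872. Chromosome 11 at 3832281 to 3832492 had 655, 387 and 320, and chromosome 13 at 3372144 to 3372897 had 465, 499 and 376. In the AH2 NBS1 list these 5 lay at or above the 96.3 percentile, in the R2K.Artm NBS1 list at or above the 93.1 percentile, and in the input list at or above the 97.2 percentile. The 5 highest of R2K.Artm NBS1 had chromosome 18 in place of chromosome 11, and input had 2 peaks of chromosome 18 in place of chromosomes 11 and 13. The chromosome 18 region from 3004778 to 3006006 had 3 AH2 NBS1 intervals (top score 315), 1 of R2K.Artm NBS1 (701) and 2 of input (495).

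Joining overlapping intervals of these lists gave 407 window regions, of which 37 were held by all 3 lists. That was 9.09% (6.67 to 12.3%), against 5.01% (4.67 to 5.37%) of the 15095 regions elsewhere. The 37 lay on 12 chromosomes, and 16 of them began in the first 100 kb. Their median length was 371 bp, and 185 bp for such regions elsewhere. Besides those already named, the 10 with the highest AH2 NBS1 score included chromosome 2 at 4437023 to 4437247 (252 in AH2 NBS1, 247 in R2K.Artm NBS1, 216 in input) and chromosome 9 at 3258761 to 3258943 (222, 182 and 299). The remaining ones were on chromosome 11, at 3000250 to 3000636 (235, 169 and 298) and at 3003667 to 3004306 (222, 116 and 133). Input peaks without an NBS1 peak remained the largest class, with 255 regions, 62.7% (57.9 to 67.2%) in the window and 62.1% elsewhere.

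NBS1 peaks of the window coincided with the other lists more often than NBS1 peaks elsewhere. Of the 128 AH2 NBS1 intervals, 63 overlapped an input peak by at least 1 base, 49.2% (Wilson 40.7 to 57.8%). The share was 25.7% over all autosomal AH2 NBS1 peaks and 25.0% (23.8 to 26.3%) outside the window. An R2K.Artm NBS1 peak was overlapped by 55 of the 128, 43.0% (34.7 to 51.6%), against 30.4% of all autosomal peaks. Of the 82 R2K.Artm NBS1 intervals, 45 overlapped input, 54.9% (44.1 to 65.2%), against 35.0%, and 50 overlapped AH2 NBS1, 61.0% (50.2 to 70.8%), against 49.6%. The last was the weakest contrast, because its interval reached that of the share outside the window (47.3 to 51.1%). In the other direction, 69 of 324 input intervals overlapped either NBS1 list, 21.3% (17.2 to 26.1%), against 12%.

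**Figure D4:**
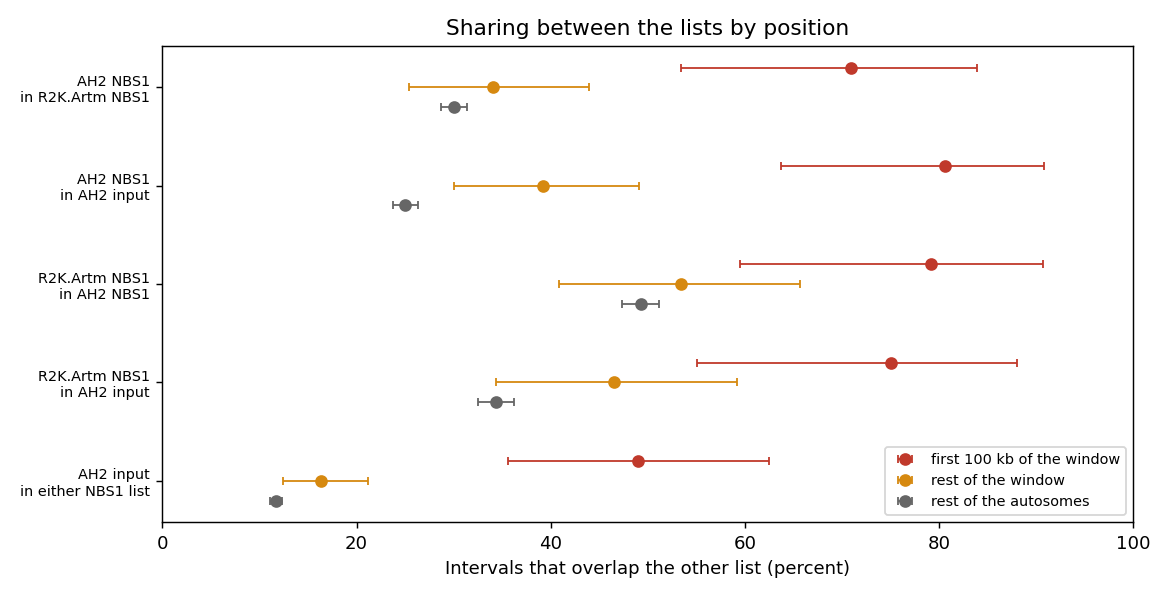
Percent of intervals that overlap another list (horizontal axis), with Wilson intervals, for the first 100 kb from 3 Mb, the rest of the window and the rest of the autosomes. The first 100 kb stands at 80.6% for AH2 NBS1 in input and 71.0% for AH2 NBS1 in R2K.Artm NBS1, above the other points in every row.

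Sharing rose towards the satellite end. In the first 100 kb, 25 of 31 AH2 NBS1 intervals overlapped input, 80.6% (63.7 to 90.8%), and 22 overlapped R2K.Artm NBS1, 71.0% (53.4 to 83.9%). Of these 31, 93.5% lay within 10 kb of another AH2 NBS1 interval. Merging such pieces left 11, so the shares rest on few separate places. For R2K.Artm NBS1, 18 of 24 overlapped input, 75.0% (55.1 to 88.0%). Past 100 kb the AH2 NBS1 shares were 39.2% (30.1 to 49.1%) for input and 34.0% (25.4 to 43.9%) for R2K.Artm NBS1. The first of these was still above the 25.0% outside the window, while the interval of the second included the 30.0% found there. Pieces of runs count separately here, so these intervals are too narrow. Of the 35 AH2 NBS1 intervals from 100 to 500 kb, 13 lay on chromosome 16, and 48.6% had another within 10 kb. Shares with pieces merged, or without chromosome 16, were not computed. For AH2 NBS1 the larger overlap with input held at both ends of the score range. Among peaks scoring at least 100 the share was 88.2% (73.4 to 95.3%) in the window and 61.3% elsewhere, and among lower ones 35.1% (26.2 to 45.2%) and 13.6%. For R2K.Artm NBS1 it appeared only below 100, at 44.8% (32.7 to 57.5%) against 19.1%. At or above 100 the shares were 79.2% (59.5 to 90.8%) and 77.8%. The overlap of R2K.Artm NBS1 with AH2 NBS1 was not larger in the window at or above 100 either. It was 91.7% (74.2 to 97.7%) there and 92.9% elsewhere, and below 100 it was 48.3% (35.9 to 60.8%) and 33.9%.

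By class, 44 of the 128 AH2 NBS1 intervals overlapped both other lists, 34.4% (26.7 to 43.0%), against 17.7% outside the window. A further 19 overlapped input alone, 14.8% (9.71 to 22.0%) against 7.32%. Only R2K.Artm NBS1 was overlapped by 11, 8.59% (4.87 to 14.7%) against 12.3%, and neither list by 54, 42.2% (34.0 to 50.8%) against 62.6%. The median width was 257.5 bp in the first of these classes and 116.5 bp in the last, and 20 of the 44 but 4 of the 54 began in the first 100 kb.

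NBS1 regions found in both lines and not in input numbered 11 in the window, on 7 chromosomes. They made up 2.70% (1.52 to 4.77%) of joined regions there and 3.58% elsewhere (3.29 to 3.89%), a difference within counting error. Only 2 of the 11 lay in the first 100 kb, both on chromosome 6, at 3000452 to 3000730 and 3072309 to 3072459. The strongest, named after their values were seen, were at 4338940 to 4339175 of chromosome 3 (459 in AH2 NBS1, 187 in R2K.Artm NBS1), at 3509458 to 3509555 of chromosome 11 (298 and 125) and at 4626166 to 4626609 of chromosome 17 (190 and 358). All 3 lay over 500 kb from the start of the sequence. A missing input peak shows only that input did not pass the caller's threshold there.

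NBS1 peaks shared with neither the other line nor input were narrow and spread over most chromosomes. The 54 AH2 NBS1 regions that neither R2K.Artm NBS1 nor input touched lay on 17 chromosomes with a median length of 116.5 bp, against 116 bp for their like elsewhere. Of these 54, 18 were in the list after subtraction, 33.3%, against 27.9% of their like elsewhere. The 26 R2K.Artm NBS1 ones lay on 15 chromosomes, at 152 bp against 143 bp. In both lines 4 began in the first 100 kb. AH2-only regions were a smaller share of joined regions in the window, 13.3% (10.3 to 16.9%), than elsewhere, 18.3%.

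After subtraction few intervals were left at the satellite end. The AH2 NBS1 list after subtraction had 34 window intervals, 0.895 per Mb against 0.574 elsewhere, a ratio of 1.56 (1.07 to 2.19). Chromosome 14 alone had 11 of them, and without it the ratio was 1.13 (0.711 to 1.70). Chromosomes 2 and 5 had 3 each, and chromosomes 3, 6, 9 and 18 had none. The first 100 kb held 2 intervals, 1.83 times the density elsewhere, with a Poisson interval (0.222 to 6.62) that reached the range of AH2 NBS1 before subtraction. The nearest, on chromosome 17 at 3026979 to 3027140, began 26.98 kb from 3 Mb. None of the runs on chromosomes 4, 11, 16 and 18 was left. The median start was 1170 kb from 3 Mb. The window intervals ranked higher within this list than the others, with a median score percentile of 67.7 against 49.7. At least 100 was reached by 4 of them, 11.8% (4.67 to 26.6%) against 4.11%. Of these 4, 3 were adjoining pieces of a run on chromosome 5, so that interval is too narrow. Of the 34 intervals, 23 had the coordinates of an AH2 NBS1 peak, 67.6% (50.8 to 80.9%) against 62.2% over the autosomes, and 5 overlapped input, 14.7% (6.45 to 30.1%) against 6.22%. The chromosome 5 pieces made up 3 of these 5. None of the 34 overlapped R2K.Artm NBS1, which allows up to 8.82% (3 counts of the total), beside 0.572% over the autosomes. The file title names both R2K.Artm NBS1 and input as subtracted, while the header line names R2K.Artm NBS1 only. The overlaps with R2K.Artm NBS1 thus describe the subtraction, and whether those with input do cannot be told from the sources used here.

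The highest scores after subtraction were on chromosome 5, in the run of 3 intervals already described: 953 at 4053654 to 4054502, 709 at 4052384 to 4053094 and 514 at 4053115 to 4053633. In the AH2 NBS1 list the same 3 intervals had 136, 156 and 66.9, but scores of different lists need not share a scale. By rank within the list they lay at percentiles 99.9, 99.9 and 99.8 after subtraction. In the AH2 NBS1 list these percentiles were 83.7, 86.6 and 49.4. All 3 overlapped an input peak. They were the only window intervals after subtraction to exceed 100, apart from chromosome 14 at 4185921 to 4186446, with 116. The next was at 4158448 to 4158588 of chromosome 10 (86.2), before 4630996 to 4631229 of chromosome 14 (79.1), 4621184 to 4621254 of chromosome 1 (68.6) and 4414158 to 4414291 of chromosome 2 (68.3). The last of the 10 highest were on chromosome 14 at 4924812 to 4925009 (66.1) and chromosome 12 at 3425022 to 3425110 (65.4). Of these 7, all but chromosome 14 at 4924812 had the coordinates of an AH2 NBS1 peak, and none overlapped input or R2K.Artm NBS1. Over all autosomal intervals after subtraction, 62.2% had such coordinates, 6.22% overlapped input and 0.572% overlapped R2K.Artm NBS1.

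Chromosome 14 had the most input peaks and the most intervals after subtraction, no R2K.Artm NBS1 peak, and an AH2 NBS1 density ratio of 1.79, the median over the chromosomes. Of its 11 intervals after subtraction, 3 were AH2 NBS1 peaks and 8 were in no other NBS1 list, against 3 of the 23 on the other chromosomes. Over all autosomal intervals after subtraction, 62.2% had the coordinates of an AH2 NBS1 peak. None of the 11 overlapped an input peak, an overlap found for only 6.22% of all autosomal intervals after subtraction. The window held 37 input intervals there, the most of any autosome. The AH2 NBS1 list had 7 intervals on chromosome 14, 1 of which overlapped input, with scores from 50.6 to 81.7.

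The intervals on either side of the 5 Mb limit were as follows. The last AH2 NBS1 interval inside it, on chromosome 7 at 4994399 to 4994544, had a score of 50.65, and the first outside, on chromosome 5 at 5062924 to 5063001, had 53.37. For R2K.Artm NBS1 the scores were 53.38 on chromosome 8 and 53.88 on chromosome 1, for input 53.53 on chromosome 7 and 50.4 on chromosome 19, and after subtraction 50.24 on chromosome 7 and 61.51 on chromosome 14.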

How the data were processed

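The deposited files are 4 peak lists in BED form. Bowtie, MACS 1.4.2 and the build mm9 are named, with no settings, per the submitters' processing notes. Not given in the sources used here are the control library of the calls and the handling of reads that fit several places. Each peak carries a score that the authors deposited, with a minimum of 50 in every list. Per the labels' protocols, cells were crosslinked for 5 min in 1% formaldehyde, sonicated to fragments of 250 bp on average and sequenced on an ABI SOLiD platform.

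Deposited starts were raised by 1 to give 1-based positions. Overlaps and densities were computed in Python 3.11.15, using numpy 2.4.6, pandas 2.3.3 and scipy 1.17.1, plotted with matplotlib 3.10.9, and the joins were tested on simulated data. The rest of a chromosome ran from 5 Mb to the last base that any list covers. The window was taken as fully assembled, and gaps in it were not checked. Shares carry 95% Wilson intervals, counts exact Poisson intervals, and density ratios the Clopper-Pearson interval of the window's share. Neighbouring intervals are not independent, so these are too narrow.

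The window and the lists were chosen with earlier results of these data known. Named regions are the 5 highest-scoring window intervals of each list (10 after subtraction), the 10 highest regions held by the 3 lists before subtraction, and the intervals nearest to 3 Mb and to the 5 Mb limit. The distance classes, runs, the 500 bp width limit and the alternatives without the first 100 kb or for its density were chosen after seeing the data. Other alternatives were windows of 1 and 3 Mb, scores of at least 100, merging under 10 kb, the next 2 Mb as comparison, the fullest chromosome or the Igh window (chromosome 12, 114 to 118 Mb) left out, input overlaps left out, 50% coverage and a 1 kb distance.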

Additional observations from a re-analysis of the deposited data

How the results depend on the processing

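No paired analysis was possible because there is only 1 library in a group, which also means that none could be omitted. Among 87 alternative values computed for 23 results, 54 stayed within the interval of the reported value (for medians, its quartiles), 32 left it and 1 reversed. All 26 alternatives of the density ratio for the 3 lists before subtraction were above 1. For AH2 NBS1, R2K.Artm NBS1 and input in turn, the ratio was 2.38, 2.92 and 2.19 in a 1 Mb window and 1.33, 1.50 and 1.62 with intervals under 10 kb apart merged. Against the next 2 Mb it was 2.17 for AH2 NBS1 and 1.32 for input, without input overlaps 1.23 for AH2 NBS1 and 1.33 for R2K.Artm NBS1, without the first 100 kb 1.45 and 1.44, and for input at scores of at least 100 it was 2.47. For the list after subtraction the ratio was 0.908 in a 1 Mb window (10 intervals), the opposite direction. At scores of at least 100 it was 4.47 (4 intervals, 3 of them in the chromosome 5 run). With merging, the density ratio of the first 100 kb was 3.34, 5.43 and 2.93 in the order above; merging counts each run once by construction. The AH2 NBS1 share in R2K.Artm NBS1 was 67.6% at scores of at least 100 in both lists, 53.6% in a 1 Mb window and 34.0% without the first 100 kb, and its share in input 79.4%, 61.9% and 39.2%. At scores of at least 100, R2K.Artm NBS1 had 83.3% in AH2 NBS1 and 70.8% in input (66.1% in a 1 Mb window), and 60.9% of input was in either NBS1 list (30.5% in a 1 Mb window, 16.4% without the first 100 kb). With the score limit set on both lists, shares outside the window were not computed, so these values do not compare the window with the rest. For shifts with no cause given here, the cause was not tested. Depth is unknown, and absence of a peak does not show absence of NBS1.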

Other observations

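The distal ends of the same chromosomes were also denser than the autosomes outside the window in the lists before subtraction. In the distal 2 Mb, counted back from the last base any list covers, AH2 NBS1 had 97 intervals, 1.37 times its density on the autosomes outside the window, R2K.Artm NBS1 had 72, 1.69 times, and input had 233, 1.37 times. The list after subtraction had 26 there, 1.19 times.

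In the 2 Mb that follow the window, from 5 to 7 Mb, AH2 NBS1 had 59 intervals, 0.836 times that density, and R2K.Artm NBS1 42, 0.989 times. Input had 246 there, 1.45 times (exact Poisson interval 1.27 to 1.64), of which 36 were on chromosome 14. The list after subtraction had 31, of which 11 were on chromosome 14, as many as inside the window.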
